A study of Sus scrofa with 189 samples.

Results

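In 84 pigs, the longissimus dorsi muscles that held the most and the least messenger RNA of PDK4 were set against each other. The 84 were chosen by 1 measured value, the summed FPKM of PDK4 (fragments scaled to transcript length and to all mapped fragments of the library). Of 189 sequenced muscles, 168 carried no re-analyzed mark in the title of the sample. The 42 of these with the highest PDK4 are called PDK4-high and the 42 with the lowest PDK4-low. The other 84 unmarked muscles lay between them, and the 21 muscles marked re-analyzed were left out of both groups. The labels do not explain the mark.

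All groups shared genotype, age and handling as far as the labels tell. The pigs were F1 animals of Duroc boars and Luchuan sows, kept on 1 farm on the same diets and killed in 1 abattoir at 210 ± 6 days of age. Muscle was taken at the thoracolumbar junction 25 minutes after death, and its polyadenylated RNA was sequenced. No animal was treated. The time since the last meal, the sex of each animal and the hour of sampling are not given in the labels, and each animal gave 1 library. PDK4-high and PDK4-low are therefore ends of the variation between untreated animals, not groups of the study.

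PDK4 encodes pyruvate dehydrogenase kinase 4, a mitochondrial enzyme that phosphorylates the pyruvate dehydrogenase complex and thereby shuts it. With the complex shut, pyruvate from glucose does not enter the citric acid cycle as acetyl-CoA, and the fibre burns fatty acids. In muscle of laboratory animals and people, PDK4 messenger RNA is known to rise with fasting, exercise and glucocorticoids and to fall with insulin. Its known regulators include the fatty acid receptors of the PPAR family, the coactivator PPARGC1A, FOXO1 and the glucocorticoid receptor. UCP3, an uncoupling protein of the inner mitochondrial membrane, and ANGPTL4, a secreted inhibitor of lipoprotein lipase, are targets of the same PPAR receptors.

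PDK4 lies on chromosome 9 of Sscrofa11.1, from 75246952 to 75260137 on the minus strand, and 1 transcript of it is listed. Its lowest, median and highest levels were 70.1, 121 and 377 FPKM in the 42 PDK4-high muscles, against 0.216, 2.71 and 5.31 FPKM in the 42 PDK4-low muscles. The groups are separate by construction, so no test applies to PDK4 itself. PDK4 ran without a gap through the animals between them. The highest animal outside PDK4-high had 66.1 FPKM and the lowest one inside 70.1 FPKM. At the other limit, the highest animal inside PDK4-low had 5.31 FPKM and the lowest one outside 5.65 FPKM. The 84 muscles between the groups had a median of 21.7 FPKM. The re-analyzed muscles covered the same span, with 1.74, 29.2 and 338 FPKM as lowest, median and highest. Of these 21, 5 reached the level of PDK4-high and 3 lay at or below the highest PDK4-low animal.

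**Figure D1:**
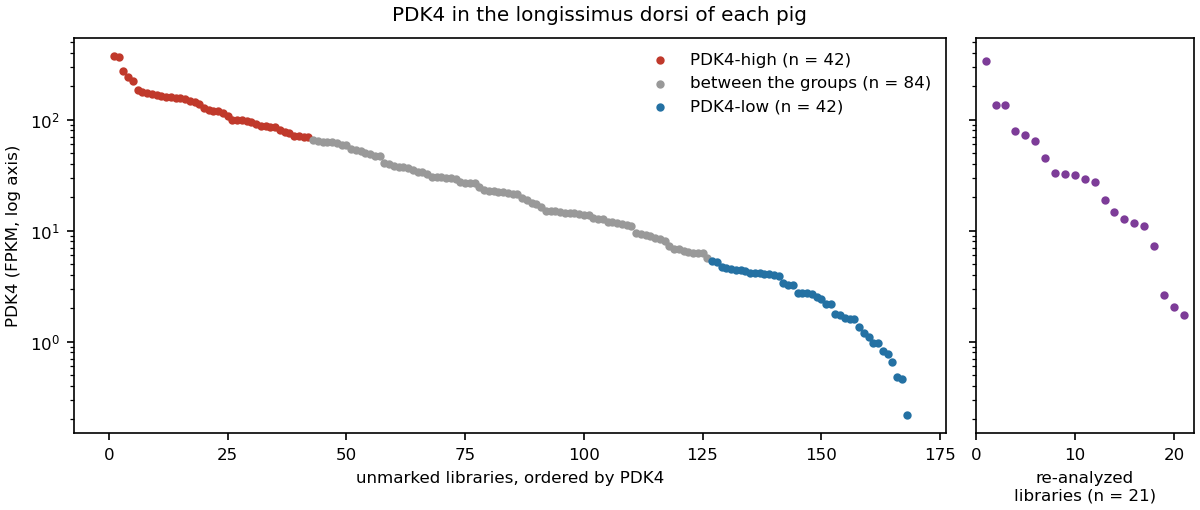
PDK4 level (FPKM, log axis) in each of the 168 unmarked libraries, ordered from highest to lowest and coloured by group, and in the 21 re-analyzed libraries at the right. Each point is 1 animal, and the unmarked points form a continuous slope with no gap at 70.1 or 5.31 FPKM, the inner limits of PDK4-high and PDK4-low.

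Across the other 10716 genes, the groups were compared by a 2-sided limma test of log2(FPKM + 1). Genes with a p under 0.05 after Benjamini-Hochberg adjustment over all 10716 count as called. As deposited, 3990 genes (37.2%) were higher and 407 (3.8%) lower in PDK4-high muscles. The median difference over all genes was 0.12 log2 units, so most genes were shifted a little upward. Quantile normalization of the libraries took that median to -0.02, with 1423 genes (13.3%) higher and 1554 (14.5%) lower. A shift of every library to a common median took it to -0.04, with 1232 (11.5%) higher and 2074 (19.4%) lower. Under all 3 scalings, 1211 genes (11.3%) were called higher and 396 (3.7%) lower, and "higher", "lower", "rose" and "fell" below refer to these calls unless stated. Where 3 levels are given for a group, they are its lowest, median and highest. Counts of called list members below are to be read beside the 11.3% higher and 3.7% lower over all genes. Most of the differences were small, since 20 called genes were higher by at least 1 log2 unit and 2 were lower by as much.

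The libraries of the groups also differed in composition. The 10 most abundant genes took 22.1, 31.3 and 43.9% of the summed FPKM in PDK4-high muscles (lowest, median and highest), against 29.8, 36.8 and 44.2% in PDK4-low muscles. At least 1 FPKM was reached by a median of 9312 genes in PDK4-high and 8887 in PDK4-low libraries. Mitochondrially encoded genes held 7.57 ± 2.06% of the FPKM in PDK4-high and 6.22 ± 2.22% in PDK4-low libraries (SD, n = 42 each). With the share of the 10 most abundant genes as a covariate, 386 genes were called higher and 190 lower. Named genes that lost their call in that fit, or with the first 6 digits of the sample title as a factor, are given beside each group. Among the genes with the longest transcripts, 47.2% were called higher as deposited, against 24.1% among those with the shortest. PDK4 and the other genes were read from the same libraries, and the part of composition in the relation to PDK4 itself was not tested. In whole muscle, fewer cells of a type and less RNA per cell cannot be told apart.

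ANGPTL4 had the largest difference of the called genes that averaged 1 FPKM or more. It lies on chromosome 2 from 70905765 to 70913026. Its lowest, median and highest levels were 9.28, 17.8 and 53.2 FPKM in PDK4-high muscles, against 1.73, 4.19 and 9.80 FPKM in PDK4-low muscles. Of the 42 PDK4-high muscles, 41 exceeded the highest PDK4-low muscle. The difference was 1.87 ± 0.106 log2 units (SE, adjusted p = 3.02e-26).

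UCP3, on chromosome 9 from 8379085 to 8386377, had 14.0, 35.0 and 114 FPKM as lowest, median and highest level in PDK4-high muscles, against 2.44, 14.9 and 58.3 FPKM in PDK4-low muscles. The ranges overlapped widely, with 40 of 42 PDK4-high muscles above the PDK4-low median and 11 above the PDK4-low maximum. The difference was 1.41 ± 0.193 log2 units (adjusted p = 6.3e-08). Thus both genes named with PDK4 as markers of its axis were higher, ANGPTL4 with little overlap and UCP3 with much.

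PLIN2, the coat protein of lipid droplets that is best known as a target of PPAR receptors, had 7.66, 13.5 and 29.3 FPKM in PDK4-high muscles, against 1.96, 4.60 and 14.7 FPKM in PDK4-low muscles (lowest, median and highest). Every PDK4-high muscle lay above the PDK4-low median, and 17 lay above the PDK4-low maximum. PLIN2 differed by 1.40 ± 0.0947 log2 units (adjusted p = 1.25e-21). MLYCD encodes malonyl-CoA decarboxylase, which removes the inhibitor of fatty acid entry into mitochondria. MLYCD levels were 7.51, 13.0 and 27.2 FPKM in PDK4-high and 0.848, 5.53 and 10.2 FPKM in PDK4-low muscles. With 35 of 42 PDK4-high muscles above the PDK4-low maximum, it overlapped little, and it differed by 1.26 ± 0.121 log2 units (adjusted p = 1.23e-13). SLC25A34, a mitochondrial carrier, had 8.37, 33.3 and 88.9 FPKM in PDK4-high and 4.54, 13.2 and 27.1 FPKM in PDK4-low muscles. It stood above the PDK4-low maximum in 28 of 42 PDK4-high muscles and differed by 1.23 ± 0.138 log2 units (adjusted p = 9.59e-11).

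**Figure D2:**
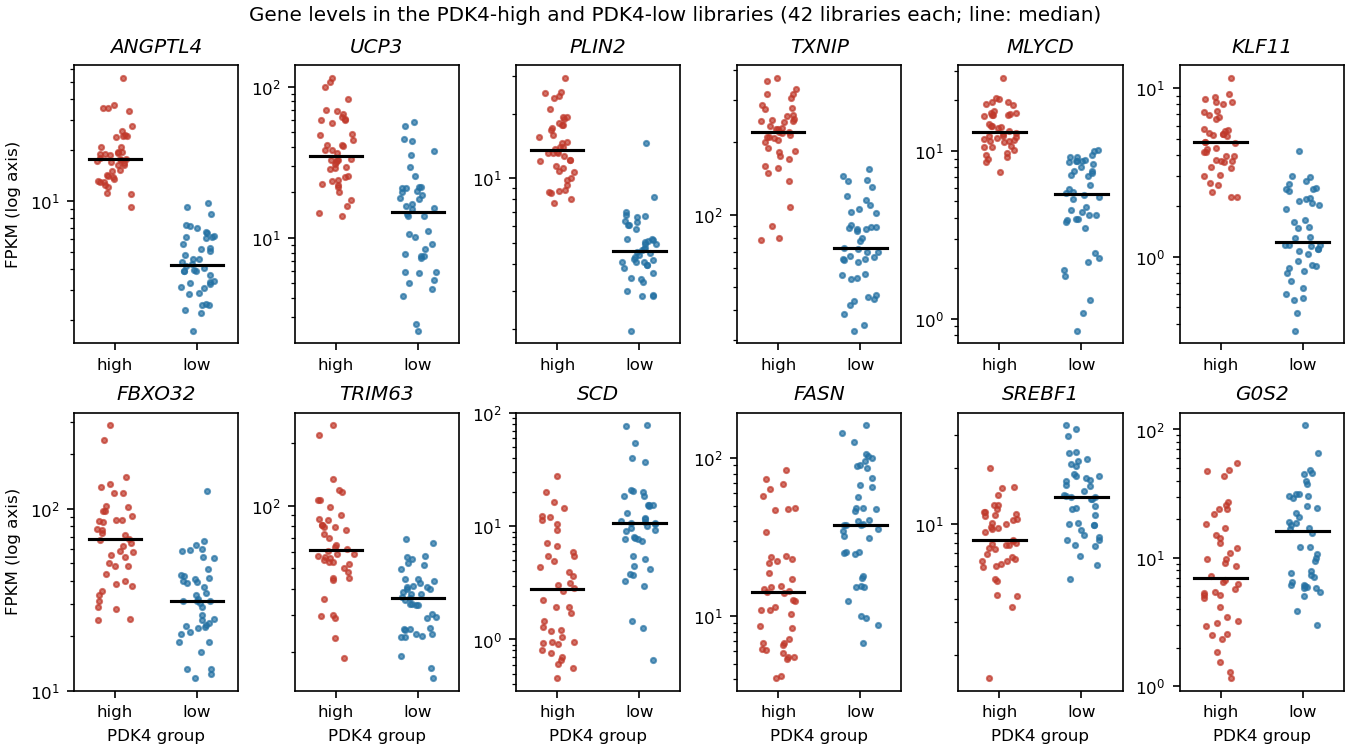
Levels (FPKM, log axis) of single genes in each PDK4-high (left in each panel) and PDK4-low library (right), with the group median as a line. ANGPTL4 and TXNIP overlap little between the groups, UCP3 and FBXO32 overlap widely, and SCD and FASN are lower in most PDK4-high libraries.

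Of 27 tested genes listed as driven by PPAR receptors in fasting, ANGPTL4 and UCP3 among them, 16 were higher and 1 was lower in PDK4-high muscles. Over the list the median difference was 0.44 log2 units as deposited, against 0.12 over all genes. The lower gene was CREB3L1, with medians of 1.86 FPKM in PDK4-high and 2.57 FPKM in PDK4-low muscles. As for the other members, its place on the list as a PPAR target was not checked. Its call was lost with the share of the 10 most abundant genes as a covariate (adjusted p = 0.168, range over the alternatives 2.02e-05 to 0.168). The receptors themselves were not called. PPARA had medians of 3.07 FPKM in PDK4-high and 2.73 FPKM in PDK4-low muscles, a difference of 0.18 ± 0.0972 log2 units (adjusted p = 0.128). PPARD had medians of 5.29 FPKM and 5.18 FPKM in PDK4-high and PDK4-low muscles (adjusted p = 0.639), and the sign of its small difference turned from 0.05 as deposited to -0.11 under quantile normalization. PPARGC1A, the coactivator of mitochondrial and fat-burning genes, was higher, with medians of 1.84 FPKM in PDK4-high and 0.969 FPKM in PDK4-low muscles. It differed by 0.50 ± 0.112 log2 units (adjusted p = 0.000361), but not with the share of the 10 most abundant genes as a covariate (adjusted p = 0.0541, range over the alternatives 4.95e-06 to 0.0541).

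Beta-oxidation breaks fatty acids down in mitochondria after the carnitine shuttle has carried them in. Of the 25 tested genes of both steps, 13 were higher and 1 was lower in PDK4-high muscles, with a median difference of 0.39 log2 units. CPT1B, the muscle form of the shuttle's first enzyme, had 9.65, 17.2 and 38.3 FPKM as lowest, median and highest level in PDK4-high muscles, against 4.94, 10.8 and 24.6 FPKM in PDK4-low muscles. It was above the PDK4-low median in 37 of 42 PDK4-high muscles, and the difference was 0.65 ± 0.105 log2 units (adjusted p = 2.55e-06). CPT1A, the liver form, was near the lower limit of detection with medians of 0.584 FPKM in PDK4-high and 0.581 FPKM in PDK4-low muscles, and was not called (adjusted p = 0.306). ETFDH passes electrons from fatty acid oxidation to the respiratory chain and had medians of 42.6 FPKM in PDK4-high and 29.2 FPKM in PDK4-low muscles (difference 0.55 ± 0.0814, adjusted p = 3.91e-07). ACACB makes the malonyl-CoA that MLYCD removes, and it was higher too, with medians of 11.0 FPKM in PDK4-high and 6.47 FPKM in PDK4-low muscles (difference 0.60 ± 0.0839, adjusted p = 1.27e-07). Genes on both sides of malonyl-CoA thus rose together. ECHS1, a hydratase of the beta-oxidation spiral, was the lower gene, with medians of 21.1 FPKM in PDK4-high and 23.6 FPKM in PDK4-low muscles (adjusted p = 0.00813). Its call was lost with the share of the 10 most abundant genes as a covariate (adjusted p = 0.167, range over the alternatives 0.000137 to 0.167).

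Of 17 tested genes of fatty acid uptake and the lipid droplet, 7 were higher and 1 was lower in PDK4-high muscles, with a median difference of 0.35 log2 units. Besides ANGPTL4 and PLIN2, the droplet protein PLIN5, which ties droplets to mitochondria, had medians of 3.14 FPKM in PDK4-high and 1.68 FPKM in PDK4-low muscles (difference 0.60 ± 0.111, adjusted p = 2.88e-05). LIPE, hormone-sensitive lipase, had medians of 20.5 FPKM in PDK4-high and 9.89 FPKM in PDK4-low muscles (difference 0.93 ± 0.167, adjusted p = 2.2e-05). HILPDA, a small droplet protein that inhibits the lipase PNPLA2, had medians of 5.62 FPKM and 3.78 FPKM in PDK4-high and PDK4-low muscles (difference 0.57 ± 0.107, adjusted p = 3.84e-05). G0S2, another inhibitor of PNPLA2, was the lower gene of the list. Its medians were 6.99 FPKM in PDK4-high and 16.2 FPKM in PDK4-low muscles, and its call (difference -0.77 ± 0.259, adjusted p = 0.0127) was lost with intramuscular fat as a covariate and in 2 further alternatives (adjusted p over all alternatives 4.2e-06 to 0.188). LPL, the lipoprotein lipase that ANGPTL4 inhibits, was not called, with medians of 33.4 FPKM in PDK4-high and 30.8 FPKM in PDK4-low muscles (adjusted p = 0.205).

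Of 22 tested genes of fatty acid and triglyceride synthesis, 5 were lower and 2 higher in PDK4-high muscles, with a median difference of -0.13 log2 units. SCD makes monounsaturated fatty acids and lies on chromosome 14 from 111461157 to 111478031. Its lowest, median and highest levels were 0.455, 2.77 and 28.1 FPKM in PDK4-high muscles, against 0.657, 10.6 and 78.0 FPKM in PDK4-low muscles. The ranges overlapped over most of their length, but 35 of 42 PDK4-high muscles lay below the PDK4-low median. SCD fell by 1.42 ± 0.259 log2 units (adjusted p = 2.73e-05). FASN, fatty acid synthase, had 4.05, 14.2 and 83.7 FPKM in PDK4-high muscles, against 6.77, 38.0 and 161 FPKM in PDK4-low muscles. It was below the PDK4-low median in 34 of 42 PDK4-high muscles and fell by 1.28 ± 0.244 log2 units (adjusted p = 4.9e-05). SREBF1, the insulin-responsive regulator of both genes, had 1.51, 8.22 and 20.0 FPKM in PDK4-high muscles, against 5.10, 14.0 and 33.7 FPKM in PDK4-low muscles. It fell by 0.66 ± 0.126 log2 units (adjusted p = 4.52e-05), with 38 of 42 PDK4-high muscles below the PDK4-low median. In 29 of the 42 PDK4-high muscles all 3 of SCD, FASN and SREBF1 lay below the PDK4-low medians. In 8 muscles 2 of them did, in 4 muscles 1, and in 1 muscle none. All 3 were called lower in these same muscles, so the counts only describe how evenly the animals shared the falls. AGPAT2 and GPD1, which act on the way to triglyceride, were the other lower genes (differences -0.28 and -0.36, adjusted p = 0.00155 and 8.61e-05). The higher genes were LPIN1, a phosphatidate phosphatase that also coactivates PPAR targets, and ACSL1, which activates fatty acids for either use. LPIN1 had medians of 36.8 FPKM in PDK4-high and 17.6 FPKM in PDK4-low muscles (difference 0.75 ± 0.132, adjusted p = 1.42e-05). ACSL1 had medians of 43.8 FPKM and 29.4 FPKM in PDK4-high and PDK4-low muscles (adjusted p = 0.000188), and its call was lost with the first 6 digits of the sample title as a factor (adjusted p = 0.0561, range over the alternatives 6.53e-06 to 0.0561).

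The complex that PDK4 acts on was looked at next. Of 16 tested genes of the pyruvate dehydrogenase complex and of pyruvate entry, 2 were higher and 1 was lower in PDK4-high muscles. Over all genes 11.3% were higher and 3.7% lower, so these counts were near those shares. The median difference was 0.16 log2 units, close to the 0.12 over all genes. PDPR, the regulatory subunit of the opposing phosphatase, had medians of 10.5 FPKM in PDK4-high and 7.93 FPKM in PDK4-low muscles (difference 0.35 ± 0.0717, adjusted p = 0.000118). PDHA1, the subunit that the kinases phosphorylate, had medians of 38.6 FPKM in PDK4-high and 28.7 FPKM in PDK4-low muscles (difference 0.43 ± 0.0939, adjusted p = 0.000261). MPC1, a subunit of the carrier that brings pyruvate into mitochondria, was lower, with medians of 107 FPKM in PDK4-high and 133 FPKM in PDK4-low muscles (difference -0.26 ± 0.0730, adjusted p = 0.00375). The sister kinase PDK1 was called higher as deposited (0.32, adjusted p = 0.00142) but not under all 3 scalings. The calls of PDHA1 and MPC1 were lost with the share of the 10 most abundant genes as a covariate (adjusted p = 0.243 and 0.254, ranges over the alternatives 1.07e-05 to 0.243 and 0.000262 to 0.254).

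Of 18 tested genes of glucose uptake and insulin signalling, 5 were higher and 2 lower in PDK4-high muscles. TXNIP, which restrains glucose uptake, lies on chromosome 4 from 99348851 to 99356209. It had 78.6, 221 and 371 FPKM as lowest, median and highest level in PDK4-high muscles, against 33.0, 72.5 and 155 FPKM in PDK4-low muscles. Of the PDK4-high muscles 36 of 42 exceeded every PDK4-low muscle, and the difference was 1.48 ± 0.118 log2 units (adjusted p = 1.29e-17). Its relative ARRDC4 had medians of 2.86 FPKM in PDK4-high and 1.43 FPKM in PDK4-low muscles (difference 0.64 ± 0.105, adjusted p = 3.88e-06). IRS2 relays the insulin receptor's signal and is known in liver to rise in fasting. It had 2.17, 5.77 and 19.4 FPKM in PDK4-high muscles, against 0.857, 2.59 and 10.0 FPKM in PDK4-low muscles, and 40 of 42 PDK4-high muscles lay above the PDK4-low median (difference 0.84 ± 0.154, adjusted p = 3e-05). PIK3CA, the catalytic subunit downstream of IRS proteins, and FOXO1, the transcription factor that insulin switches off, were the other higher genes (differences 0.63 and 0.42, adjusted p = 0.000752 and 0.00103). The FOXO1 call was lost with the first 6 title digits as a factor and with the share of the 10 most abundant genes as a covariate (adjusted p over the alternatives 5.36e-05 to 0.122). The lower genes were PPP1R3B and PPP1R3C, which bring a phosphatase to glycogen and favour its storage, with medians of 10.5 and 22.5 FPKM in PDK4-high and 14.6 and 34.2 FPKM in PDK4-low muscles. The calls of PIK3CA, PPP1R3B and PPP1R3C were lost with the first 6 title digits, and that of PIK3CA also with the share of the 10 most abundant genes. HK2, the insulin-responsive hexokinase, was not called as deposited, with medians of 7.16 FPKM in PDK4-high and 10.8 FPKM in PDK4-low muscles (difference -0.22 ± 0.139, adjusted p = 0.212), and was called lower under both other scalings.

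Of 19 tested genes of glycolysis, 6 were lower and 1 higher in PDK4-high muscles, and the median difference was -0.22 log2 units. TPI1 had medians of 605 FPKM in PDK4-high and 779.7 FPKM in PDK4-low muscles (difference -0.40 ± 0.104, adjusted p = 0.00154). PKM, pyruvate kinase, had medians of 1435 FPKM in PDK4-high and 1725 FPKM in PDK4-low muscles (difference -0.38 ± 0.0936, adjusted p = 0.000911). These enzymes are among the most abundant messages of this muscle, and the list's summed level was 55808 FPKM in PDK4-high and 67252 FPKM in PDK4-low muscles at the median. The higher gene was PFKFB3, which makes the activator of phosphofructokinase, with 1.92, 12.3 and 39.6 FPKM in PDK4-high and 1.58, 4.97 and 53.2 FPKM in PDK4-low muscles. The PDK4-high range lay within the PDK4-low range, and 32 of 42 PDK4-high muscles lay above the PDK4-low median (difference 1.01 ± 0.211, adjusted p = 0.000172). Of 17 glycogen genes, 3 were lower and 2 higher. The lower ones were PPP1R3B, PPP1R3C and the glycogen synthase GYS1. The higher ones were UGP2, which makes the glucose donor for glycogen, and PPP1R3A, the muscle glycogen-targeting subunit, with medians of 67.6 and 92.3 FPKM in PDK4-high and 42.5 and 47.1 FPKM in PDK4-low muscles. With the share of the 10 most abundant genes as a covariate, TPI1, PKM, UGP2, PPP1R3A and GYS1 were no longer called, and with the first 6 title digits TPI1 and GYS1 were not. Glycolytic enzymes are themselves among those abundant genes.

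Muscle wasting genes under FOXO control formed the next group. Of 24 tested, 11 were higher and 0 lower in PDK4-high muscles under all 3 scalings, with a median difference of 0.29 log2 units. FBXO32, the ubiquitin ligase atrogin-1, had 24.5, 67.7 and 286 FPKM as lowest, median and highest level in PDK4-high muscles, against 11.7, 31.2 and 125 FPKM in PDK4-low muscles. The ranges overlapped, but 37 of 42 PDK4-high muscles lay above the PDK4-low median, and the difference was 1.07 ± 0.164 log2 units (adjusted p = 1.1e-06). TRIM63, the ligase MuRF1, had 18.6, 61.3 and 242 FPKM in PDK4-high muscles, against 14.9, 36.2 and 69.3 FPKM in PDK4-low muscles. It exceeded the PDK4-low maximum in 18 of 42 PDK4-high muscles and differed by 0.86 ± 0.135 log2 units (adjusted p = 1.68e-06). GABARAPL1 and BNIP3L act in autophagy and the removal of mitochondria. GABARAPL1 had medians of 17.3 FPKM in PDK4-high and 11.8 FPKM in PDK4-low muscles (difference 0.60 ± 0.104, adjusted p = 9.96e-06). BNIP3L had medians of 7.13 FPKM and 4.59 FPKM in PDK4-high and PDK4-low muscles (difference 0.49 ± 0.0836, adjusted p = 8.51e-06). RETREG1, a receptor that feeds endoplasmic reticulum into autophagy, was not on the list and had a difference next to that of ANGPTL4 in size. Its levels were 2.70, 18.9 and 148 FPKM in PDK4-high muscles, against 1.08, 5.77 and 27.2 FPKM in PDK4-low muscles. They spread widely within PDK4-high, where 38 of 42 muscles lay above the PDK4-low median and 14 above the PDK4-low maximum (difference 1.51 ± 0.241, adjusted p = 2.23e-06). Of 26 proteasome and ubiquitin genes, 17 were called higher as deposited and 6 under all 3 scalings, beside 37.2% and 11.3% over all genes. The regulatory subunit PSMD12 had medians of 17.5 FPKM in PDK4-high and 9.61 FPKM in PDK4-low muscles (difference 0.71 ± 0.149, adjusted p = 0.000172), a call lost with the share of the 10 most abundant genes as a covariate.

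Of 22 tested genes that glucocorticoids induce, 11 were higher and 2 lower in PDK4-high muscles, with a median difference of 0.55 log2 units, the highest among the lists with more than 2 tested genes. CEBPD, a transcription factor of the acute phase, had 4.09, 16.1 and 62.4 FPKM in PDK4-high muscles, against 1.21, 6.08 and 30.8 FPKM in PDK4-low muscles. It lay above the PDK4-low median in 39 of 42 PDK4-high muscles (difference 1.33 ± 0.203, adjusted p = 9.53e-07). KLF9, a direct target of the glucocorticoid receptor, had medians of 19.3 FPKM in PDK4-high and 7.15 FPKM in PDK4-low muscles (difference 1.00 ± 0.150, adjusted p = 5.29e-07). SLC38A2, an amino acid transporter, had medians of 22.2 FPKM in PDK4-high and 11.1 FPKM in PDK4-low muscles (difference 0.93 ± 0.126, adjusted p = 5.57e-08). FKBP5, the classic feedback gene of the receptor, had medians of 17.5 FPKM in PDK4-high and 9.81 FPKM in PDK4-low muscles (difference 0.76 ± 0.196, adjusted p = 0.00167). KLF15, another such target, was called higher as deposited (0.27, adjusted p = 0.0280) but under neither other scaling. IGFBP5 and SGK1, which the list holds as induced genes, were lower, with medians of 9.46 and 4.87 FPKM in PDK4-high and 13.5 and 7.08 FPKM in PDK4-low muscles. The FKBP5 and SGK1 calls were lost with the first 6 title digits as a factor and with the share of the 10 most abundant genes as a covariate (adjusted p over the alternatives 8e-05 to 0.371 and 1.89e-05 to 0.202), and that of IGFBP5 with the title digits.

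**Figure D3:**
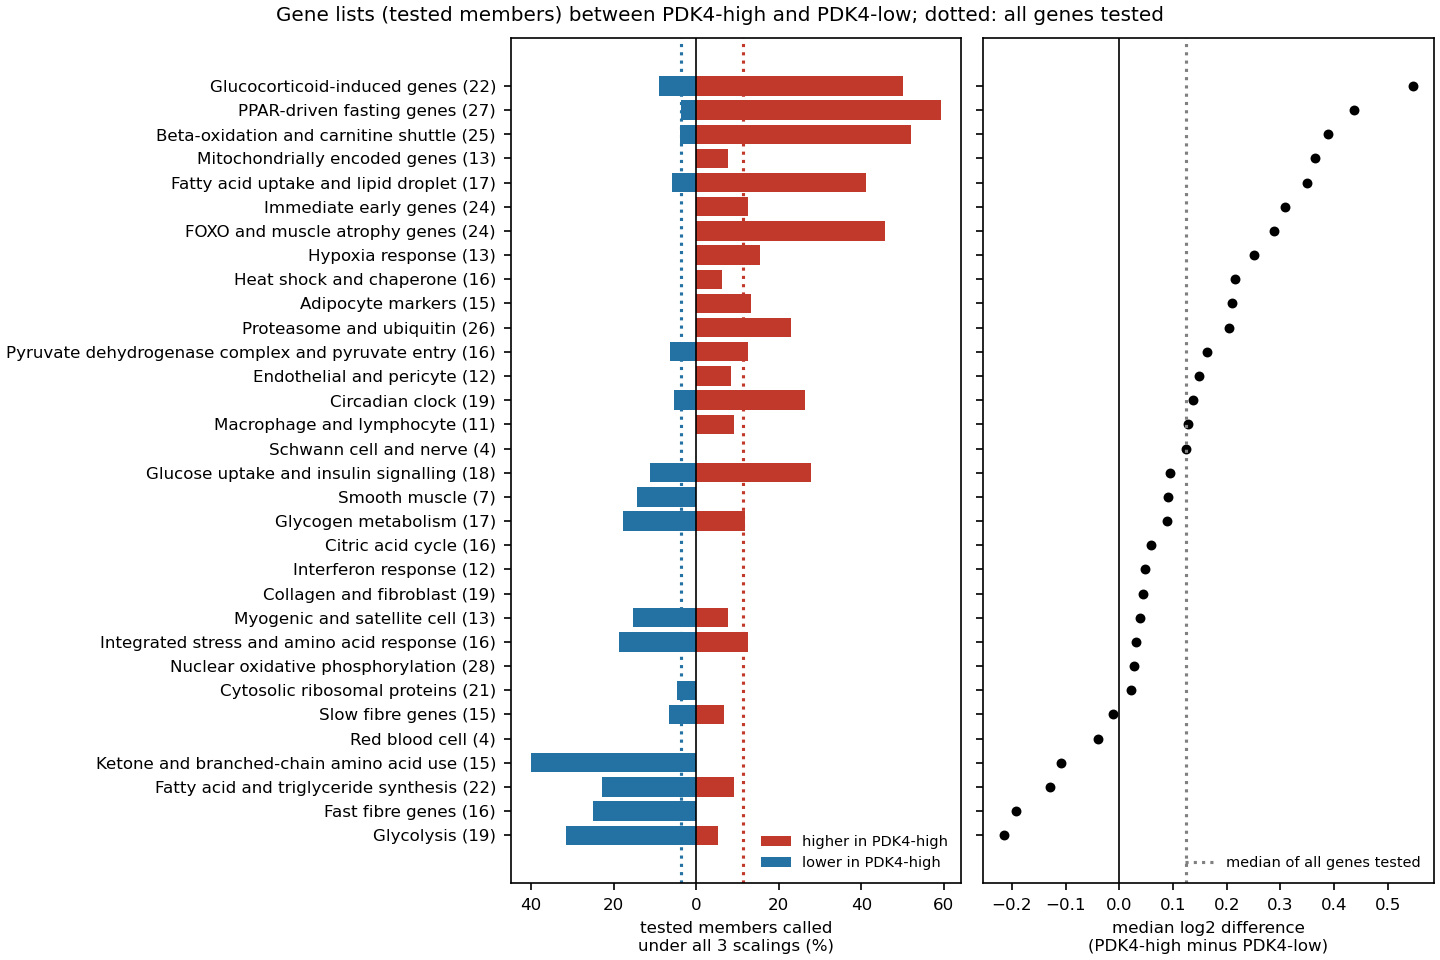
Gene lists in rows, with the number of tested members in brackets. Left, the share of members called higher (right of 0) and lower (left of 0) in PDK4-high muscles under all 3 scalings, with dotted lines at 11.3% and 3.7%, the shares over all genes. Right, the median log2 difference of each list, with a dotted line at 0.12, the median over all genes. Glucocorticoid-induced and PPAR-driven genes lie at the top and glycolysis at the bottom.

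Amino acid genes were mixed. Of 16 tested genes of the integrated stress and amino acid response, 3 were lower and 2 higher in PDK4-high muscles. ASNS, asparagine synthetase, had 2.38, 12.2 and 40.3 FPKM as lowest, median and highest level in PDK4-high muscles, against 6.46, 23.1 and 45.7 FPKM in PDK4-low muscles. It lay below the PDK4-low median in 40 of 42 PDK4-high muscles and fell by 0.95 ± 0.151 log2 units (adjusted p = 2.29e-06). PHGDH, the first enzyme of serine synthesis, had medians of 0.552 FPKM in PDK4-high and 1.24 FPKM in PDK4-low muscles, and SESN2 was the third lower gene (differences -0.43 and -0.10, adjusted p = 0.00112 and 0.0376). The higher genes were DDIT4, an inhibitor of the growth kinase mTORC1 that is also a glucocorticoid target, and CEBPB (differences 0.77 and 0.83, adjusted p = 0.000161 and 0.00537). Of 15 genes of ketone and branched-chain amino acid use, 6 were lower and 0 higher under all 3 scalings, with a median difference of -0.11 log2 units. BCKDHB, a subunit of the branched-chain keto acid dehydrogenase, had medians of 10.6 FPKM in PDK4-high and 12.7 FPKM in PDK4-low muscles (difference -0.28 ± 0.0761, adjusted p = 0.00290). BDH1, which oxidises ketone bodies, had medians of 7.55 FPKM and 9.07 FPKM in PDK4-high and PDK4-low muscles (difference -0.28 ± 0.0860, adjusted p = 0.00665). ARG2, the mitochondrial arginase, was on neither list and had medians of 6.49 FPKM in PDK4-high and 11.2 FPKM in PDK4-low muscles (difference -0.77 ± 0.139, adjusted p = 2.2e-05). The calls of ASNS and ARG2 held under every alternative tried, while those of PHGDH, SESN2, CEBPB, BCKDHB and BDH1 were lost with the share of the 10 most abundant genes as a covariate. The calls of SESN2, CEBPB and BCKDHB were also lost with the first 6 title digits as a factor, and those of SESN2 and BDH1 between the 17 highest and 17 lowest animals.

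Several other genes had large differences and belonged to none of these lists. KLF11, a transcription factor, had 2.25, 4.81 and 11.5 FPKM as lowest, median and highest level in PDK4-high muscles, against 0.363, 1.23 and 4.25 FPKM in PDK4-low muscles. All 42 PDK4-high muscles lay above the PDK4-low median and 25 above the PDK4-low maximum (difference 1.29 ± 0.104, adjusted p = 1.87e-17). ANKRD1, a stretch-responsive protein of the sarcomere, had 6.94, 45.3 and 801 FPKM in PDK4-high muscles, against 4.63, 21.7 and 122 FPKM in PDK4-low muscles. It was spread over more than 2 orders of magnitude within PDK4-high, and its call (difference 1.23 ± 0.277, adjusted p = 0.000392) was lost with the share of the 10 most abundant genes as a covariate (adjusted p = 0.109, range over the alternatives 3.18e-06 to 0.109). ENHO, the precursor of the peptide adropin, had medians of 72.6 FPKM in PDK4-high and 140.4 FPKM in PDK4-low muscles (difference -0.91 ± 0.152, adjusted p = 5.46e-06). ST8SIA2, a polysialyltransferase, had medians of 1.30 FPKM in PDK4-high and 3.59 FPKM in PDK4-low muscles (difference -0.89 ± 0.111, adjusted p = 3.74e-09). Both lay below the PDK4-low median in at least 38 of 42 PDK4-high muscles. MAMSTR, a coactivator of the muscle transcription factors MEF2, had medians of 16.7 FPKM in PDK4-high and 30.4 FPKM in PDK4-low muscles (difference -0.76 ± 0.115, adjusted p = 7.16e-07). ASB12, of a family of ubiquitin ligase adaptors, had medians of 23.0 FPKM and 34.6 FPKM in PDK4-high and PDK4-low muscles (difference -0.64 ± 0.121, adjusted p = 4.31e-05).

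Fibre type was described by the contractile genes of slow and fast fibres. MYH7, the slow myosin heavy chain, had 244, 735 and 1989 FPKM in PDK4-high muscles, against 106, 834 and 1289 FPKM in PDK4-low muscles (lowest, median and highest). The ranges overlapped, and MYH7 was not called (difference -0.01 ± 0.149, adjusted p = 0.955). MYH4, the fastest heavy chain, had medians of 2006 FPKM in PDK4-high and 2051 FPKM in PDK4-low muscles and was not called (difference -0.20 ± 0.150, adjusted p = 0.288). Of 16 fast fibre genes, 8 were called lower and 0 higher as deposited, beside 3.8% and 37.2% over all genes. Their median difference was -0.19 log2 units, and their summed level was 84769 FPKM in PDK4-high and 101837 FPKM in PDK4-low muscles at the median. A fast fibre score was not used as a covariate. Under all 3 scalings 4 fast fibre genes were lower and 0 higher, among them CASQ1, the calcium store protein of fast fibres. CASQ1 had medians of 793 FPKM in PDK4-high and 1100.5 FPKM in PDK4-low muscles (difference -0.51 ± 0.110, adjusted p = 0.000261), and its call was lost with the first 6 title digits and with the share of the 10 most abundant genes (adjusted p over the alternatives 9.49e-07 to 0.351). Of 15 slow fibre genes, 1 was higher, PPARGC1A, and 1 lower, the light chain MYL3, whose calls were both lost with that share as a covariate, and that of MYL3 also with the title digits. Few genes of the respiratory chain were called. Of 28 nuclear genes of oxidative phosphorylation, 3 were called higher as deposited and 0 in either direction under all 3 scalings, with a median difference of 0.03 log2 units. Of 13 mitochondrially encoded genes, 7 were called higher as deposited and 1, ND2, under all 3 scalings, beside 37.2% and 11.3% over all genes. ND2 had medians of 708 FPKM in PDK4-high and 349.9 FPKM in PDK4-low muscles, and with the share of the 10 most abundant genes as a covariate its difference turned from 0.57 to -0.05. The ND2 call was also lost with the title digits. Of 16 citric acid cycle genes, 3 were called higher as deposited and 0 under all 3 scalings.

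Markers of other cells in muscle were listed to see whether they moved with PDK4. Over all genes 11.3% were higher under all 3 scalings, and the higher counts in these lists lay near or below that share. Of 15 adipocyte markers, 2 were higher under all 3 scalings, LIPE and FABP4, and the FABP4 call was lost with the first 6 title digits. The list's summed level ran over 218, 389 and 4150 FPKM in PDK4-high muscles, against 186, 343 and 575 FPKM in PDK4-low muscles (lowest, median and highest). The highest value came from library 39, which also had the lowest median correlation with the other libraries. ADIPOQ, made by fat cells, was called higher as deposited (0.52, adjusted p = 0.0255) but not under the other scalings. Without library 39, 2 of 120 named genes lost their call. The ribosomal protein RPLP0 was among them and was not called under all 3 scalings either. With the adipocyte score as a covariate the difference was 1.79 log2 units for ANGPTL4, and 4 of 120 named genes lost their call. For LIPE it was 0.71 with the score and 0.93 without it. LIPE is itself a member of the score, so part of that drop is built in. Of 19 collagen and fibroblast genes, 0 were called in either direction under all 3 scalings, with summed medians of 1417 FPKM in PDK4-high and 1521 FPKM in PDK4-low muscles. Among 12 endothelial and pericyte genes 1 was higher, the pericyte gene RGS5, and among 11 macrophage and lymphocyte genes 1 was higher, MRC1. CNN1 was the 1 lower gene of 7 smooth muscle genes. With the share of the 10 most abundant genes as a covariate RGS5 and CNN1 were no longer called. None of the 4 tested red blood cell and 4 Schwann cell genes was called under all 3 scalings.

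The only trait in the labels is intramuscular fat content, the fat held within the muscle, whose unit is not stated. It was 3.43 ± 0.832 in 33 PDK4-high animals and 3.13 ± 0.766 in 37 PDK4-low animals with a record (SD). The difference of means was 0.299, smaller than either SD. A permutation test of that difference gave a 2-sided p of 0.123 (100000 resamples). Between the 17 highest and the 17 lowest animals for PDK4 the difference was 0.688 (n = 15 and 16 with a record, permutation p = 0.0297), and between the 56 highest and 56 lowest it was 0.0836 (permutation p = 0.63). The titles also hold a number that the labels do not explain. Split by its first 4 digits, the lower class held 14 of 42 animals in PDK4-high and 14 of 42 in PDK4-low (33.3% each). Among animals that shared the first 9 digits, PDK4 had an intraclass correlation of 0.119 over 129 animals of 45 codes. PDK4-high and PDK4-low drew on 34 distinct codes each, and 9 codes had animals in both.

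The same genes were also read against PDK4 in the muscles outside both groups. The 84 muscles between the groups were set by the same PDK4 ranking, so their slopes are not an independent reading. Only the 21 re-analyzed muscles lay outside that ranking. Their intramuscular fat was either low, from 0.77 to 2.33, or high, from 4.83 to 6.84, with no animal between. PDK4-high and PDK4-low animals with a record averaged 3.43 and 3.13. Library composition was not a covariate in any of these slope fits, so its part in the slopes was not tested. In the 21 re-analyzed muscles, a slope on log2(PDK4 + 1) was called for 2 genes upward (0.0187%) and 0 downward. At an unadjusted p under 0.05, 578 of 10716 genes passed (390 upward and 188 downward). That total is close to the share of 0.05 that such a threshold passes when no gene is related to PDK4. The called genes were KLF11, with a slope of 0.30 ± 0.0347 log2 units per log2 unit of PDK4 (adjusted p = 8.63e-05), and PLIN2, with 0.27 ± 0.0446 (adjusted p = 0.0193). ANGPTL4 and UCP3 had slopes of 0.31 ± 0.0656 and 0.36 ± 0.0821, neither of them called (adjusted p = 0.206 and 0.206). In the 84 muscles between the groups, 3 genes were called upward (0.028%) and 0 downward. At an unadjusted p under 0.05, 942 of 10716 genes passed (681 upward and 261 downward). The 3 called genes were PLIN2 (0.26 ± 0.0508, adjusted p = 0.0232), ANGPTL4 (0.31 ± 0.0660, adjusted p = 0.0357) and the protein kinase DAPK2 (0.17 ± 0.0345, adjusted p = 0.0232). Under quantile normalization 0 genes were called upward in these 84 muscles. As deposited, PLIN2 was thus called in both sets and in the comparison of PDK4-high with PDK4-low.

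Most slopes had the sign of the difference between the groups even where they were not called. Of the 1211 genes higher in PDK4-high muscles, 1089 (89.9%) had a positive slope in the re-analyzed muscles, where 64.5% of all genes did. In the muscles between the groups 1201 of them (99.2%) had a positive slope, against 59.7% of all genes. Of the 396 lower genes, 329 (83.1%) had a negative slope in the re-analyzed muscles and 371 (93.7%) in those between the groups. Over all genes, negative slopes were the minority in both sets. Genes are not independent of each other, and the muscles between the groups came from the same PDK4 ranking, so these shares are descriptions. Of the 25 beta-oxidation genes 24 had a positive slope in the re-analyzed muscles and 19 in those between the groups. Of the 27 genes listed as PPAR-driven 23 and 21 did in the same sets. These counts stand beside positive slopes for 64.5% and 59.7% of all genes. The beta-oxidation and PPAR-driven lists share members, so their counts are not separate readings. SCD had slopes of -0.16 ± 0.128 in the re-analyzed muscles and -0.36 ± 0.159 in those between the groups, and neither was called (adjusted p = 0.918 and 0.540). FBXO32 had slopes of 0.11 ± 0.104 and 0.31 ± 0.102 in the same sets (adjusted p = 0.928 and 0.445). The oxidative phosphorylation genes did not keep 1 direction, with positive slopes for 28 of 28 in the re-analyzed muscles and for 7 of 28 in those between the groups. The difference of slopes between the 21 re-analyzed and the 168 unmarked muscles was called for 0 genes (0.0%), and 254 passed an unadjusted p under 0.05 (smallest adjusted p = 0.984). A p that misses the threshold does not show that slopes were equal. The re-analyzed and unmarked animals also differed in the spread of intramuscular fat, which was not a covariate in that fit.

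**Figure D4:**
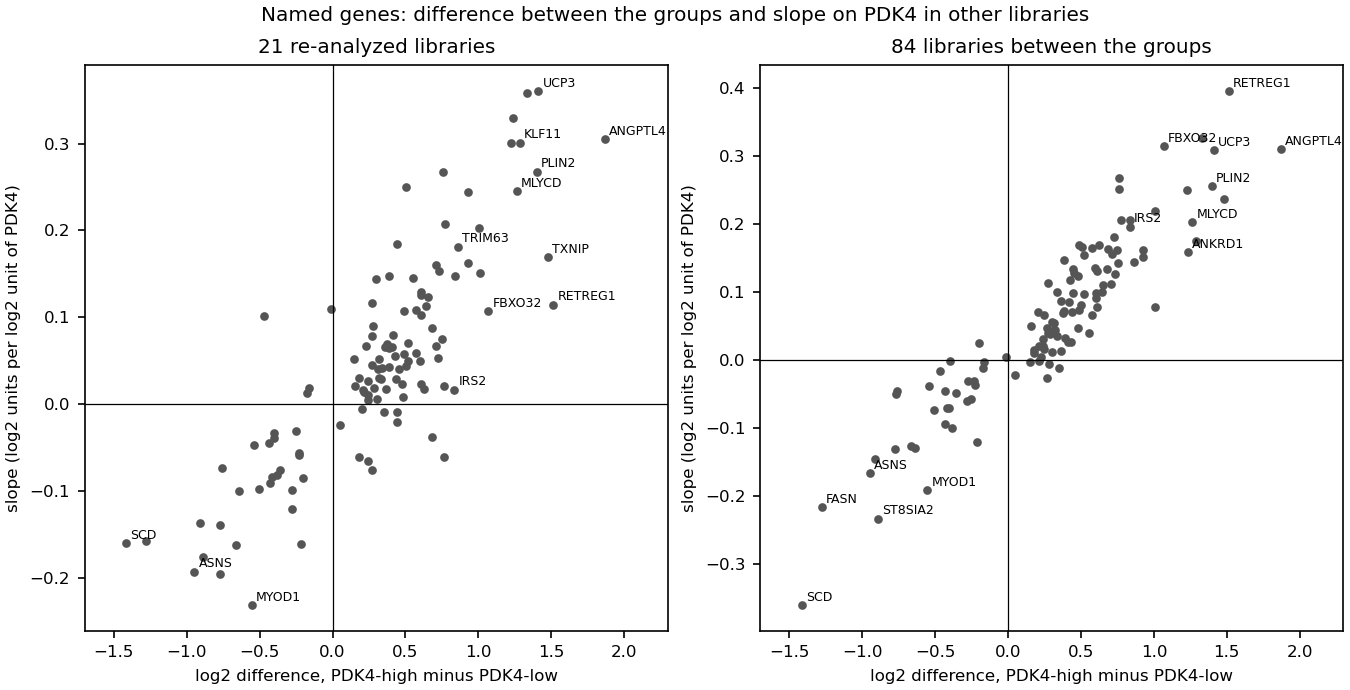
Named genes, each a point, with the log2 difference between PDK4-high and PDK4-low muscles on the horizontal axis and the slope on log2(PDK4 + 1) on the vertical axis, in the 21 re-analyzed muscles (left) and the 84 muscles between the groups (right). Most points lie in the upper right and lower left. ANGPTL4 has slopes of 0.31 and 0.31, and ASNS slopes of -0.19 and -0.17.

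Over all 168 unmarked muscles, the genes whose levels ran most like PDK4 by Spearman's rho were ANGPTL4 (0.783), PLIN2 (0.781), TXNIP (0.713), KLF11 (0.690) and MLYCD (0.676). These values describe genes read from the same libraries and include the animals chosen for their PDK4. For 7 genes with large differences, the animals were also counted 1 by 1. Of these genes, namely ANGPTL4, UCP3, PLIN2, TXNIP, MLYCD, KLF11 and SLC25A34, all 7 lay above the PDK4-low median in 37 of 42 PDK4-high muscles and 6 of them in the other 5. In the opposite direction, 35 of 42 PDK4-low muscles had none of the 7 genes above the PDK4-high median and the other 7 muscles had 1. These 7 were picked for their large differences in these same muscles. The counts describe how evenly the animals shared them and do not cover the other called genes.

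**Figure D5:**
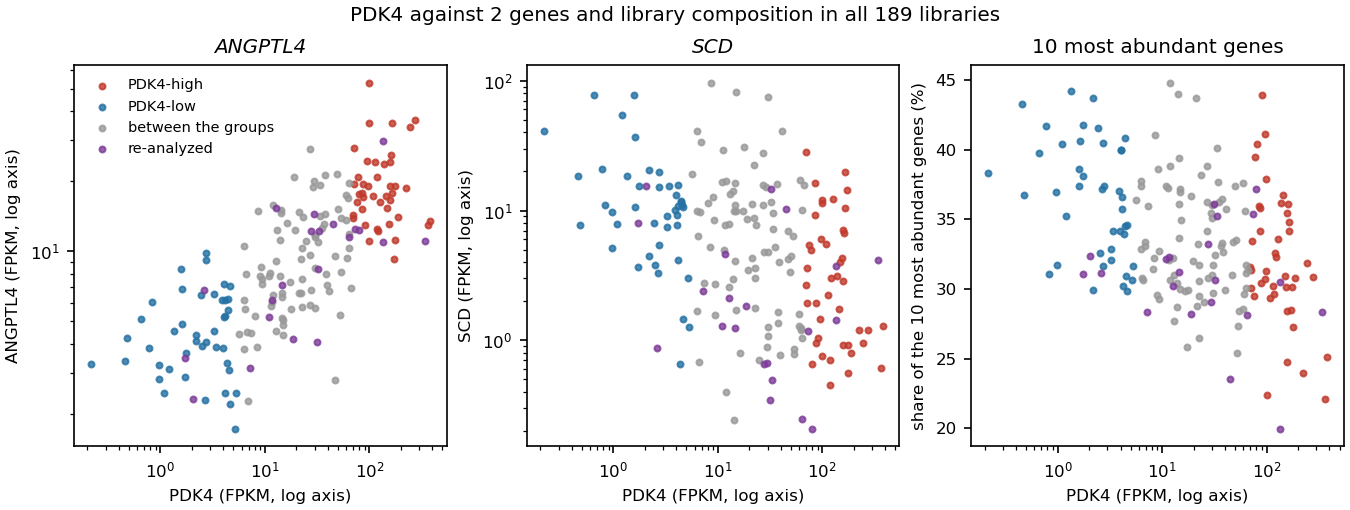
ANGPTL4 (left) and SCD (middle) in FPKM on a log axis, and the share of summed FPKM held by the 10 most abundant genes (right, percent), each against PDK4 (FPKM, log axis) in all 189 libraries, 1 point per animal. ANGPTL4 climbs with PDK4 through the animals between the groups. SCD scatters widely at every PDK4 level, with more low values at high PDK4, and the share has a median of 31.3% in PDK4-high and 36.8% in PDK4-low libraries.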

How the data were processed

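Polyadenylated RNA of 189 longissimus dorsi muscles was sequenced as 150-base paired-end libraries, per the labels' protocols. HISAT2 2.0.5, StringTie 1.3.3 and the build Sscrofa11.1 are named in the submitters' processing notes. The authors deposited 1 value per transcript and sample, taken here as FPKM from the column layout and library sums, since the header names no unit. For these deposited FPKM, the labels and notes name no annotation, filter or further normalization. No counts are given, so depth is unknown and errors are the spread between animals. The kit named in the labels is not stated to keep strand, so reads of a gene and of an antisense partner cannot be told apart.

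FPKM were summed per gene over 18114 transcripts of 12651 genes. The table names 10949 of the genes, and 746 were named by identifier from a reference table. Genes that averaged 0.5 FPKM or more over 189 libraries were kept, which left 10716 without PDK4. Log2(FPKM + 1) was tested in limma 3.58.1 (R 4.3.3, lmFit and eBayes with trend), after a check on simulated data. Fold changes on this scale understate the change of low genes. The group means of 42 against 42 animals were compared, slopes on log2(PDK4 + 1) were fitted in the animals outside both groups, and the slope by mark was tested over all 189. Single values over animals were tested by permutation (scipy 1.17.1). P-values treat animals as independent, although the labels do not say which share a parent.

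The members, the 33 gene lists and the tests were chosen with earlier results of these data known. Named were UCP3 and ANGPTL4, the 10 largest called differences in each direction among genes that averaged 1 FPKM or more, up to 4 called members of each list, a set of defining genes, and the 5 genes closest to PDK4 by rho. Genes behind counts of 5 or fewer in a list were named after their values were seen. The call under 3 scalings (as deposited, quantile normalization, common median) was added after seeing the data. Other alternatives were a pseudocount of 0.1, other filters, the 56 or 17 animals at each end and a slope over all 168 animals. Title digits, intramuscular fat, a slow fibre score, an adipocyte score and composition were also used as covariates. The 47 animals at each end of all 189 were compared too.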

Additional observations from a re-analysis of the deposited data

How the results depend on the processing

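The counts of called genes moved most with scaling and composition. Of genes higher in PDK4-high muscles, against 3990 as deposited, there were 1576 with a mean of at least 5 FPKM (fewer genes tested), 1423 under quantile normalization, 1232 after the median shift, 1641 with the first 6 title digits as a factor, 386 with the share of the 10 most abundant genes as a covariate and 1211 under all 3 scalings. Of lower genes, against 407, there were 1554, 2074, 190 and 190 under quantile normalization, the median shift, the 6 title digits and that share, and 634 by the slope over 168 animals. The cause of these moves was not tested. In the muscles between the groups 0 genes had a called positive slope under quantile normalization, against 3. The difference in intramuscular fat was 0.688 (permutation p = 0.0297) for 17 against 17 animals.

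For 120 named genes, 1691 of 1898 single-gene values kept their direction and side of the threshold, 186 lost the call and 19 changed sign. Of 113 called genes, 47 kept the call throughout. Among called genes, CYCS (-0.05), ND2 (-0.05), ND4L (-0.01), ND5 (-0.09), SUCLG2 (-0.07), SUCLA2 (-0.07), RPLP0 (0.0) and EPB42 (-0.01) changed sign with the share of the 10 most abundant genes, and EPB42 also after the median shift (-0.01). Of genes not called, CPT1A (-0.02) changed sign after the median shift, PPARD under quantile normalization (-0.11) and the median shift (-0.12), and with 6 title digits HK2 (0.02), LPL (-0.01) and MYH7 (0.06). MYH7 also did so with intramuscular fat (0.05), with the adipocyte score (0.03), without library 39 (0.0) and in the ends of all 189 animals (0.03). Leaving out library 39, a PDK4-high animal, cannot change the slopes in the middle animals. The titles give no replicate numbers that pair animals across the groups. With animals that share the first 9 title digits as a correlated block, 4007 genes were higher and 418 lower. Depth is unknown, so what it limits cannot be stated.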

Other observations

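Beyond fuel use, the clock genes were mixed. Of 19 tested, 5 were higher and 1 was lower in PDK4-high muscles under all 3 scalings, with a median difference of 0.14 log2 units, against 0.12 over all genes. NR1D2, a repressor of the clock, had medians of 22.7 FPKM in PDK4-high and 12.6 FPKM in PDK4-low muscles (difference 0.69 ± 0.173, adjusted p = 0.00133). PER1, which glucocorticoids also induce, had medians of 10.5 FPKM in PDK4-high and 6.48 FPKM in PDK4-low muscles (difference 0.61 ± 0.147, adjusted p = 0.000841). CLOCK, CRY2 and RORA were the other higher genes. With the share of the 10 most abundant genes as a covariate the calls of NR1D2, PER1, CLOCK and RORA were lost. DBP, an output gene of the clock, was the lower one, with 0.702, 3.47 and 21.4 FPKM as lowest, median and highest level in PDK4-high muscles, against 1.22, 4.96 and 84.2 FPKM in PDK4-low muscles, and its call (difference -0.60 ± 0.251, adjusted p = 0.0485) was lost in 8 alternatives. The hour of sampling is not in the labels, and its part in these values was not tested.

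Of 24 immediate early genes, 10 were called higher as deposited and 3 under all 3 scalings, near the 37.2% and 11.3% over all genes. The 3 genes were KLF6, FOSL2 and MAFF. KLF6 had medians of 9.24 FPKM in PDK4-high and 5.04 FPKM in PDK4-low muscles (difference 0.73 ± 0.101, adjusted p = 1.02e-07). MAFF had medians of 5.96 FPKM in PDK4-high and 3.37 FPKM in PDK4-low muscles (difference 0.84 ± 0.135, adjusted p = 2.7e-06). Among 13 myogenic genes, MYF6, the regulator most abundant in adult fibres, was higher and MYOD1 and CDH15 were lower. MYF6 had 17.2, 40.7 and 62.9 FPKM in PDK4-high muscles, against 13.9, 23.8 and 51.6 FPKM in PDK4-low muscles (difference 0.68 ± 0.0989, adjusted p = 3.04e-07). MYOD1, a regulator of satellite cells and fast fibres, had 4.12, 13.3 and 45.0 FPKM in PDK4-high muscles, against 8.34, 19.1 and 40.1 FPKM in PDK4-low muscles (difference -0.55 ± 0.129, adjusted p = 0.000598). The 2 regulators thus went opposite ways, and both calls held in every alternative tried. Of 13 hypoxia genes 2 were higher, PFKFB3 and HILPDA, and of 16 chaperone genes 1, DNAJB4. Both counts lay near or below the 11.3% over all genes. RPL10 was the 1 lower gene of 21 ribosomal protein genes. The DNAJB4 and RPL10 calls were lost with the share of the 10 most abundant genes and with the first 6 title digits as a factor. Of the interferon response list, 0 of 12 genes were called under all 3 scalings.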
